A study of Rattus norvegicus with 18 samples.

Results

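Neutrophils are short-lived white blood cells made in bone marrow and drawn into injured tissue. The genes described here are 10 that neutrophils are known to use, taken from the 22081 genes of the deposited rat lung tables by an exact match of the gene symbol. *S100a8* and *S100a9* encode the partner subunits of calprotectin, a calcium- and zinc-binding protein that fills the neutrophil cytoplasm and acts as an alarm signal once released. *Cxcr2*, *Csf3r*, *Fpr1* and *Fpr2* encode surface receptors for chemokines, for the growth factor G-CSF and for formylated peptides. *Trem1* encodes a receptor that amplifies inflammatory signals on neutrophils, monocytes and macrophages. *Camp*, *Ngp* and *Mpo* encode granule proteins, which are mostly transcribed in the bone marrow before a neutrophil enters the blood. Monocytes and macrophages can also transcribe *S100a8*, *S100a9*, *Trem1* and the formyl peptide receptors, so none of the 10 genes is a count of neutrophils by itself.

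The RNA came from accessory lobe tissue of 18 male F344 rats, 3 in each of 6 groups, and pieces with tumor nodules visible by eye were not taken. The MWCNT groups received 0.5 mg/kg of MWNT-7, a multiwalled carbon nanotube, through the trachea every 4 weeks from 9 weeks of age, and the vehicle groups (called control below) received the suspending solution alone. Control and MWCNT rats were killed at week 26 (Year 0.5), week 52 (Year 1) or week 104 (Year 2), so each rat gave 1 time point and age moved together with the length of treatment. Every rat came from 1 sex and 1 inbred strain. Total counts per rat ran from 13297643 to 17868851 in control rats and from 14661589 to 21130757 in MWCNT rats, and no pair of libraries held the same counts.

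Levels are given in TPM, the deposited transcript level adjusted for transcript length and library size. Changes are log2 fold changes of MWCNT over time-matched control rats, fitted to the deposited counts with edgeR's quasi-likelihood test, each with its standard error (SE) and a false discovery rate (FDR) adjusted over all genes tested. A gene is said to have risen or fallen where the FDR was under 0.05 and the change exceeded 1 on the log2 scale in either direction. In whole lung tissue, fewer cells of a type and less RNA per cell cannot be told apart.

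In the coordinates of the deposited tables (Rnor_6.0, given in the sources as rn6), *S100a8* (ENSRNOG00000011557) lies at chr2:190073815-190074354 on the plus strand and *S100a9* (ENSRNOG00000011483) at chr2:190097554-190100276 on the minus strand. *Trem1* (ENSRNOG00000022859) spans chr9:14727976-14809447 on the minus strand. Its annotated region covers 81472 bases and holds 1 other listed gene, AABR07066753.1, which lies on the opposite strand and had 11 counts over all 18 rats. *Cxcr2* (ENSRNOG00000014269) lies at chr9:81427730-81434102 and *Csf3r* (ENSRNOG00000008759) at chr5:144031402-144051600, both on the plus strand. Apart from *Trem1*, none of the 10 regions overlaps another listed gene.

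RefSeq promoters (build GRCr8) were found for 9 of the 10 genes, all but *S100a8*. They are printed for a pair of genes that rose in MWCNT lungs, *S100a9* and *Trem1*, and for a pair that did not pass the test at any year, *Csf3r* and *Cxcr2*, so that the sequence before the start of each can be read beside its values. Each line holds the 250 bases before the start in the direction of transcription. Capitals mark the matches, on either strand, to 4 short motifs: the TATA box (TATAAA), C/EBP (TTNNGNAA), AP-1 (TGANTCA) and PU.1 (GAGGAA). The *S100a9* stretch is chr2:178490623-178490872 (minus strand), the *Trem1* stretch chr9:20272470-20272719 (minus strand), the *Csf3r* stretch chr5:143582970-143583219 (plus strand) and the *Cxcr2* stretch chr9:83178395-83178644 (plus strand).
S100a9: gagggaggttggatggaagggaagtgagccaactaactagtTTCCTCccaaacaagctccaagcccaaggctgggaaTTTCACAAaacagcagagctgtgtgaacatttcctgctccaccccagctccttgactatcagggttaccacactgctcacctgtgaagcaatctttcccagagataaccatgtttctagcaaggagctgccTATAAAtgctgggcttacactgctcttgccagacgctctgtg
Trem1: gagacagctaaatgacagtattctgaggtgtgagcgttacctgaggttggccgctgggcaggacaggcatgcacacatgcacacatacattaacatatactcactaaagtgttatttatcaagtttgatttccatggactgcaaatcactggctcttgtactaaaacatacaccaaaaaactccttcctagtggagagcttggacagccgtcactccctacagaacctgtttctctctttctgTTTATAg
Csf3r: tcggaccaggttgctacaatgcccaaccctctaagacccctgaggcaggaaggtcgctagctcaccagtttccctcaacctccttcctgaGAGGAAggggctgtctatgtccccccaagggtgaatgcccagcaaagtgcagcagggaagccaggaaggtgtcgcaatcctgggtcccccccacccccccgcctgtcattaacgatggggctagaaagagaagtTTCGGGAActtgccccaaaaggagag
Cxcr2: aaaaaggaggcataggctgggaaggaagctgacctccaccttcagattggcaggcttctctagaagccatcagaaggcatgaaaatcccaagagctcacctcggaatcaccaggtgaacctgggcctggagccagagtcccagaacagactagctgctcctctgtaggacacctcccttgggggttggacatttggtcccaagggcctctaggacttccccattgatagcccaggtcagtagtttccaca

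The *S100a9* stretch holds a TATA box from 42 to 37 bases before the start, a C/EBP match from 173 to 166 bases before it and a PU.1 match from 209 to 204 bases before it, the last 2 on the opposite strand. *Csf3r* holds a C/EBP match from 26 to 19 bases and a PU.1 match from 160 to 155 bases before the start. *Trem1* holds 1 match, to the TATA box on the opposite strand from 7 to 2 bases before the start, and *Cxcr2* holds none. Among 33469 RefSeq rat promoters of the same length, 12.9% held the TATA box, 37.2% C/EBP, 6.34% AP-1 and 23.3% PU.1. These matches describe the letters of the window and not a bound site.

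Of the 10 genes, 3 rose in MWCNT lungs: *S100a9* and *Trem1* at all 3 years, and *S100a8* at Year 1 and Year 2. The neutrophil receptors *Cxcr2* and *Csf3r* and the granule genes *Camp* and *Ngp* did not pass the test at any year. *Fpr1*, *Fpr2* and *Mpo* had too few counts to pass the filter on low counts in the comparisons by year, so 7 of the 10 genes were tested. At Year 0.5, 2 of the 10 were higher, against 6.07% higher and 9.1% called in either direction among the 14315 genes tested. At Year 1, 3 of the 10 were higher, against 6.13% higher and 10.2% called either way of 14345 genes. At Year 2, 3 of the 10 were higher, against 8.17% higher and 16.4% called either way of 14361 genes. No gene of the 10 was called lower by edgeR or by DESeq2 at any year. In edgeR, 4, 3 and 3 of them had an unadjusted p under 0.05 at Years 0.5, 1 and 2. These were *S100a8*, *S100a9* and *Trem1*, higher at each year, and *Ngp*, lower at Year 0.5.

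**Figure D1:**
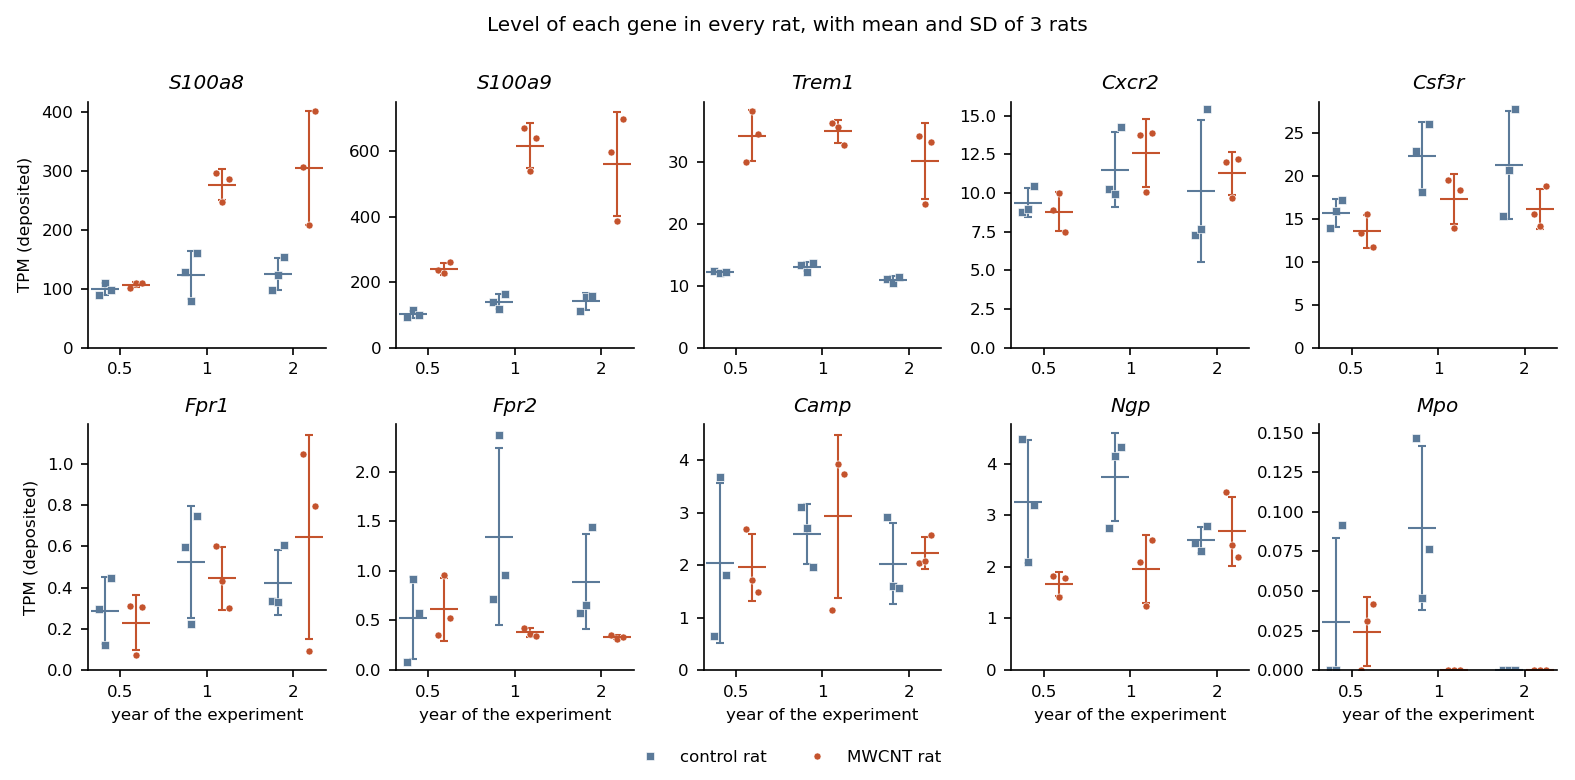
Level in TPM of each of the 10 genes (vertical axes, each from 0 and with its own scale) by year of the experiment (horizontal axis), with 1 square per control rat and 1 circle per MWCNT rat, and the mean and SD of each group of 3. S100a9 and Trem1 are higher in every MWCNT rat than in every control rat, S100a8 separates from Year 1, and Cxcr2 and Csf3r overlap at each year.

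*S100a9* had the largest log2 fold change of the 7 tested members at Years 1 and 2, and *Trem1* at Year 0.5. Its level in control rats was 93.8, 113 and 98.1 TPM at Year 0.5, 140, 117 and 164 TPM at Year 1, and 111, 155 and 158 TPM at Year 2. In MWCNT rats it was 235, 226 and 260 TPM at Year 0.5, 671, 539 and 640 TPM at Year 1, and 597, 385 and 699 TPM at Year 2. All 9 MWCNT rats lay above all 9 control rats. The log2 fold change was 1.39 (SE 0.09, FDR 1.49e-05) at Year 0.5, which is 2.62-fold. It was 2.36 (SE 0.12, FDR 3.87e-06) at Year 1, or 5.14-fold, and 2.21 (SE 0.21, FDR 3.56e-05) at Year 2, or 4.63-fold.

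*S100a8*, its partner in calprotectin, had a similar level in control rats and a smaller fold change at each year, and was called at Years 1 and 2 only. Control rats held 89.3, 110 and 97.6 TPM at Year 0.5, 128, 79.7 and 161 TPM at Year 1, and 98.0, 123 and 153 TPM at Year 2. MWCNT rats held 102, 110.1 and 109 TPM at Year 0.5, 297, 246 and 286 TPM at Year 1, and 306, 207 and 401 TPM at Year 2. The groups overlapped at Year 0.5 and were apart at Years 1 and 2. The log2 fold change at Year 0.5 was 0.26 (SE 0.10, FDR 0.0739), which did not pass. At Year 1 *S100a8* was 2.64-fold higher (SE 0.21 on the log2 scale, FDR 0.000904), and at Year 2 it was 2.85-fold higher (SE 0.23, FDR 0.000569).

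*Trem1* was higher by about the same factor at each year. Control rats lay in a narrow range, at 12.4, 12.1 and 12.2 TPM at Year 0.5, 13.4, 12.3 and 13.6 TPM at Year 1, and 11.1, 10.4 and 11.4 TPM at Year 2. MWCNT rats held 30.0, 38.2 and 34.5 TPM at Year 0.5, 36.4, 35.6 and 32.8 TPM at Year 1, and 34.1, 23.1 and 33.2 TPM at Year 2. The lowest MWCNT rat, 1 of the 3 at Year 2, was still above the highest control rat. The log2 fold change was 1.63 (SE 0.13, FDR 4.41e-05), 1.65 (SE 0.12, FDR 1.76e-05) and 1.67 (SE 0.18, FDR 8.03e-05) at Years 0.5, 1 and 2, which is 3.10-, 3.14- and 3.19-fold.

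The G-CSF receptor gene *Csf3r*, which neutrophils carry through their whole development, did not pass the test at any year. Control rats held 13.9, 15.9 and 17.1 TPM at Year 0.5, 22.9, 18.04 and 26.0 TPM at Year 1, and 15.3, 20.6 and 27.8 TPM at Year 2. MWCNT rats held 13.3, 15.6 and 11.8 TPM, then 19.5, 14.0 and 18.3 TPM, then 15.5, 14.2 and 18.7 TPM. The groups overlapped at every year. The log2 fold change was −0.06 (SE 0.13) at Year 0.5, −0.14 (SE 0.15) at Year 1 and −0.17 (SE 0.18) at Year 2. The ranges of 2 SE either side were −0.31 to 0.19, −0.44 to 0.15 and −0.53 to 0.19, so a doubling of *Csf3r*, which is 1 on this scale, lay outside all 3.

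*Cxcr2*, the receptor for the CXC chemokines that draw neutrophils into tissue, did not pass the test at any year either. Control rats held 8.75, 8.96 and 10.46 TPM at Year 0.5, 10.3, 9.97 and 14.3 TPM at Year 1, and 7.31, 7.66 and 15.4 TPM at Year 2. MWCNT rats held 8.92, 10.004 and 7.47 TPM, then 13.8, 10.1 and 13.9 TPM, then 12.0, 9.67 and 12.2 TPM. One control rat at Year 2 was above every MWCNT rat. The log2 fold change was 0.06 (SE 0.18), 0.35 (SE 0.18) and 0.38 (SE 0.28) at the 3 years, with FDR values of 0.824, 0.15 and 0.281. The upper ends of the 2 SE ranges were 0.42, 0.71 and 0.93.

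The formyl peptide receptor genes were near the detection limit. *Fpr1* had 1 to 10 counts per rat (0.0753 to 1.05 TPM) and *Fpr2* had 1 to 25 counts (0.0848 to 2.37 TPM). At Year 1, *Fpr2* stood at 0.713, 2.37 and 0.956 TPM in control rats and at 0.428, 0.369 and 0.341 TPM in MWCNT rats, and at Year 2 at 0.574, 0.656 and 1.45 TPM against 0.357, 0.313 and 0.338 TPM. At both years every MWCNT rat was below every control rat, on counts of 4 to 5 against 6 to 25. The share of all genes whose groups lie apart in this way was not counted. Without the filter on low counts, the log2 fold change of *Fpr2* at Year 1 was −1.56 (SE 0.59, FDR 0.0671) and did not pass. Leaving out replicate 1 of the Year 1 control rats let *Fpr2* pass the filter and be called lower, at −1.83 (FDR 0.0381).

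Of the granule genes, *Mpo*, which encodes myeloperoxidase, had 10 counts over all 18 rats, 8 in control and 2 in MWCNT rats, and no counts in any rat at Year 2. *Camp*, the cathelicidin gene, had 4 to 28 counts per rat, or 0.646 to 3.94 TPM, with overlapping groups at every year. Its log2 fold changes of 0.11 (SE 0.57), 0.44 (SE 0.48) and 0.34 (SE 0.41) did not pass. *Ngp*, the neutrophilic granule protein gene, had 13 to 42 counts per rat. It stood at 4.48, 2.10 and 3.20 TPM in control and 1.82, 1.41 and 1.79 TPM in MWCNT rats at Year 0.5, and at 2.76, 4.15 and 4.32 TPM against 2.10, 1.24 and 2.53 TPM at Year 1. Every MWCNT rat was below every control rat at these 2 years, and the groups overlapped at Year 2. How many of all genes have groups apart in this way was not counted. The log2 fold change of *Ngp* was −0.83 (SE 0.35, FDR 0.0902) at Year 0.5, −0.72 (SE 0.33, FDR 0.111) at Year 1 and 0.31 (SE 0.33) at Year 2. Without replicate 2 of the Year 0.5 control rats it was called lower, at −1.06.

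**Figure D2:**
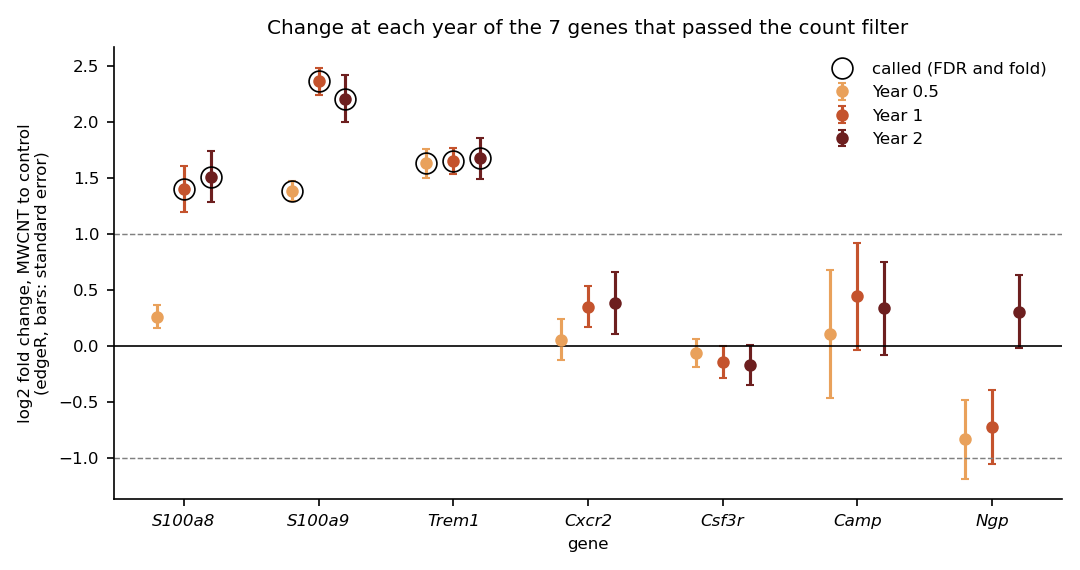
Log2 fold change of MWCNT over control rats with its standard error (vertical axis, edgeR) for the 7 genes that passed the count filter (horizontal axis), with 1 point per year. Rings mark called changes and dashed lines a doubling or halving: S100a9 runs from 1.39 to 2.36, Trem1 from 1.63 to 1.67, and Csf3r from −0.17 to −0.06.

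The scaling of the libraries shifts all of these values a little. All genes tested had a median log2 fold change of −0.02, 0.00 and −0.01 at Years 0.5, 1 and 2 under trimmed mean of M-values (TMM) scaling. Under library size alone their median was −0.12, −0.13 and −0.18. The share of called genes that were higher was 66.7%, 60.0% and 49.9% with TMM factors and 54.2%, 45.2% and 37.5% with library size alone. The same members were called under both scalings at each year.

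Because the rats of each year were their own set, change with time was tested between groups in 1 model of all 18 rats, where 8 of the 10 genes passed the filter. Within MWCNT rats, Year 1 against Year 0.5, 7 of 14843 genes were called (0.0472%), and *S100a8* and *S100a9* were 2 of them, with *Foxs1*, *Lpo*, *Muc20*, *Pla2g2a* and *Vat1l*. *S100a8* rose by 1.43 (SE 0.22, FDR 0.0134) and *S100a9* by 1.42 (SE 0.17, FDR 0.00184) on the log2 scale. Year 2 against Year 0.5, both again rose, by 1.59 (SE 0.22) and 1.31 (SE 0.17), among 2.34% of genes called. From Year 1 to Year 2, 0.903% of genes were called and none of the 10, with 0 at an unadjusted p under 0.05 and 0 by DESeq2. *Trem1* differed by 0.09 (SE 0.13) from Year 0.5 to Year 1 and by −0.10 (SE 0.14) from Year 0.5 to Year 2.

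Control rats gave the background for age together with the length of vehicle treatment, which cannot be told apart. No gene of the 10 was called by edgeR or DESeq2 in any of the 3 control comparisons, among 0%, 0.633% and 0.499% of all genes called for Year 1 against 0.5, Year 2 against 0.5 and Year 2 against 1. At an unadjusted p under 0.05 there were 3, 2 and 0 of the 10. The largest of those for the calprotectin pair was *S100a9*, with 0.48 (SE 0.18, FDR 0.123) from Year 0.5 to Year 2 in control rats.

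Whether the MWCNT effect itself changed between years was tested as a treatment by time interaction, with the FDR alone as the threshold. The interaction passed for none of the 10 genes in edgeR, among 0%, 1.31% and 0.478% of all genes for Year 1 against 0.5, Year 2 against 0.5 and Year 2 against 1, although 3, 3 and 1 of them had an unadjusted p under 0.05. For Year 2 against Year 0.5 the interaction of *S100a8* was 1.26 (SE 0.32, FDR 0.0646) and that of *S100a9* 0.83 (SE 0.25, FDR 0.12). DESeq2 called both of these and no other member in any interaction. The value for *Trem1* was 0.05 (SE 0.21), with a 2 SE range of −0.36 to 0.46. Leaving out replicate 2 of the Year 2 MWCNT rats, the lowest of its group for *S100a8*, *S100a9* and *Trem1*, let edgeR call both calprotectin genes. Leaving out replicate 2 of the Year 1 control rats, or replicate 3 of the Year 2 control rats, let it call *S100a8* alone.

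The 2 calprotectin genes did not keep their proportion to each other. Ratios of TPM within a rat do not depend on how libraries are scaled against each other. After the data were seen, 5 such ratios were chosen and compared between MWCNT and control rats. *S100a9* to *S100a8* stood at 1.05, 1.03 and 1.01 in the Year 0.5 control rats, at 1.10, 1.47 and 1.02 in the Year 1 control rats and at 1.13, 1.26 and 1.03 in the Year 2 control rats. In MWCNT rats it was 2.31, 2.06 and 2.39 at Year 0.5, 2.26, 2.19 and 2.23 at Year 1, and 1.95, 1.86 and 1.74 at Year 2. All 9 MWCNT rats lay above all 9 control rats, and the mean ratio over the years was 1.88-fold higher (exact permutation within years, two-sided p = 0.00025, the smallest p that 8000 arrangements can give, and 0.00025 adjusted over the 5 ratios). The adjustment covers the 5 ratios but not their choice after the data were seen, so the p of each ratio is descriptive. The mean ratio of *S100a9* to *S100a8* in control rats was 1.03 ± 0.02, 1.20 ± 0.24 and 1.14 ± 0.11 (SD, n = 3) at Years 0.5, 1 and 2.

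*Csf3r* served as a second base, chosen after the data were seen because its level did not pass the test at any year. Its mean was still lower in MWCNT than in control rats, at 13.5 against 15.7, 17.3 against 22.3 and 16.2 against 21.2 TPM at Years 0.5, 1 and 2. *S100a9*, *S100a8* and *Trem1* had already been called higher, so the p of their ratios to *Csf3r* adds no separate support. The permutation p is the same 0.00025 in each of the ratios that follow, both raw and adjusted. *S100a9* to *Csf3r* ran from 5.68 to 7.50 in control rats and from 14.5 to 38.6 in MWCNT rats, which is 4.28-fold on average. *S100a8* to *Csf3r* ran from 4.42 to 6.89 and from 7.07 to 21.4, a 2.27-fold difference, and at Year 0.5 its mean was 6.33 ± 0.60 in control and 8.01 ± 1.15 in MWCNT rats (SD, n = 3). *Trem1* to *Csf3r* ran from 0.410 to 0.892 and from 1.63 to 2.94, a 3.38-fold difference. *Cxcr2* to *Csf3r* ran from 0.372 to 0.629 in control and from 0.636 to 0.772 in MWCNT rats, 1.32-fold higher, and the nearest values lay close together. In all 5 ratios the groups were apart at each of the 3 years.

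**Figure D3:**
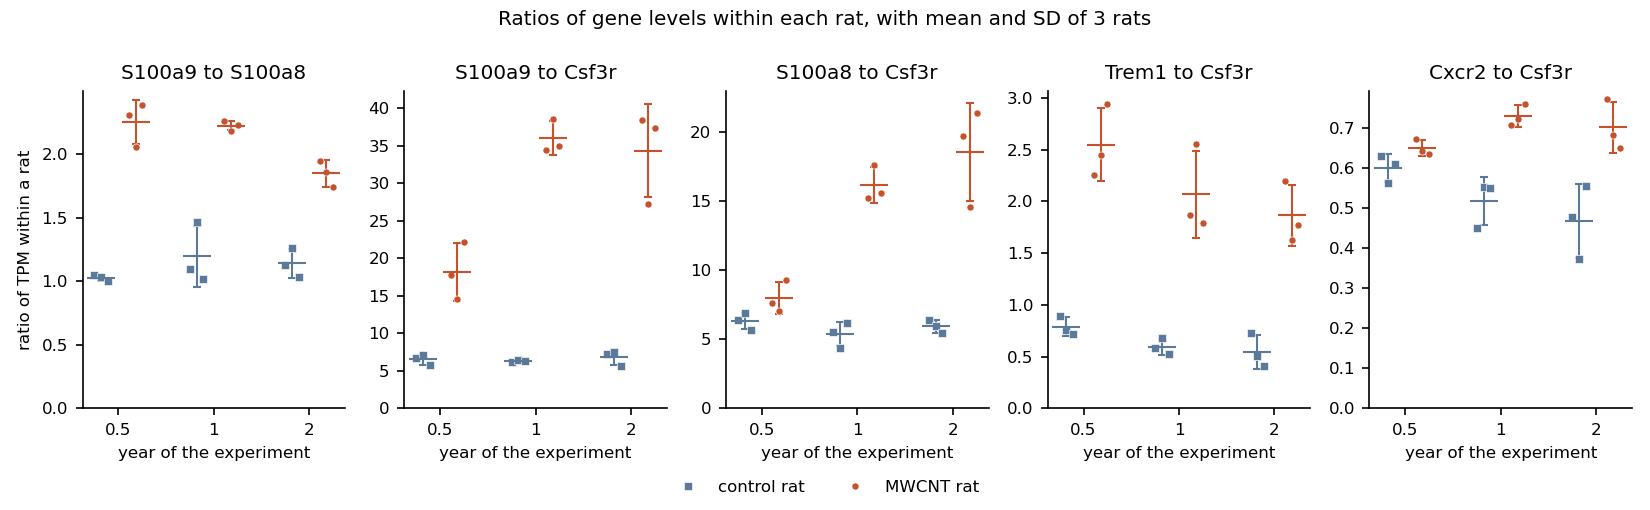
Ratio of TPM of 2 genes within each rat (vertical axes, from 0) by year of the experiment (horizontal axis), with 1 square per control rat, 1 circle per MWCNT rat, and the mean and SD of each group of 3. S100a9 to S100a8 lies from 1.01 to 1.47 in control rats and from 1.74 to 2.39 in MWCNT rats, and Cxcr2 to Csf3r shows the narrowest gap.

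Rats of the same group also differed from each other, and these differences were shared by some members. Over 18 rats, each taken as its log2 CPM (counts adjusted for library size and TMM factor) minus the mean of its own group, *S100a8* and *S100a9* moved together (Pearson's r = 0.911, exact permutation within groups p = 0.000322, Spearman's rho = 0.903, p = 0.000364). Over the 10 pairs of 5 genes that were compared, the adjusted p was 0.00121 for r and 0.00268 for rho. When the 2 rats with the most extreme *S100a8* values were left out, r was 0.877. *Cxcr2* and *Csf3r* gave r = 0.866 and rho = 0.858 (exact permutation p = 0.000364 and 0.000536, adjusted 0.00121 and 0.00268), and 0.803 without the 2 farthest rats. *S100a8* and *Csf3r* gave r = 0.793 and rho = 0.785 (exact permutation p = 0.000236 and 0.000922, adjusted 0.00121 and 0.00307), and 0.782 without the 2 farthest rats.

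*S100a8* and *Cxcr2* gave a weaker relation of r = 0.635 and rho = 0.620 (exact permutation p = 0.00915 and 0.0172, adjusted 0.0221 and 0.043). *S100a9* and *Csf3r* gave r = 0.661 (exact permutation p = 0.0111, adjusted 0.0221), with an adjusted p of 0.0597 for rho. *Trem1* stood apart from the other 4 genes, with r from 0.292 to 0.569 and no adjusted p under 0.05. Its relation with *S100a8* went from 0.569 to 0.251 without the 2 farthest rats. The remaining pair, *S100a9* and *Cxcr2*, gave r = 0.487 (exact permutation p = 0.0951).

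**Figure D4:**
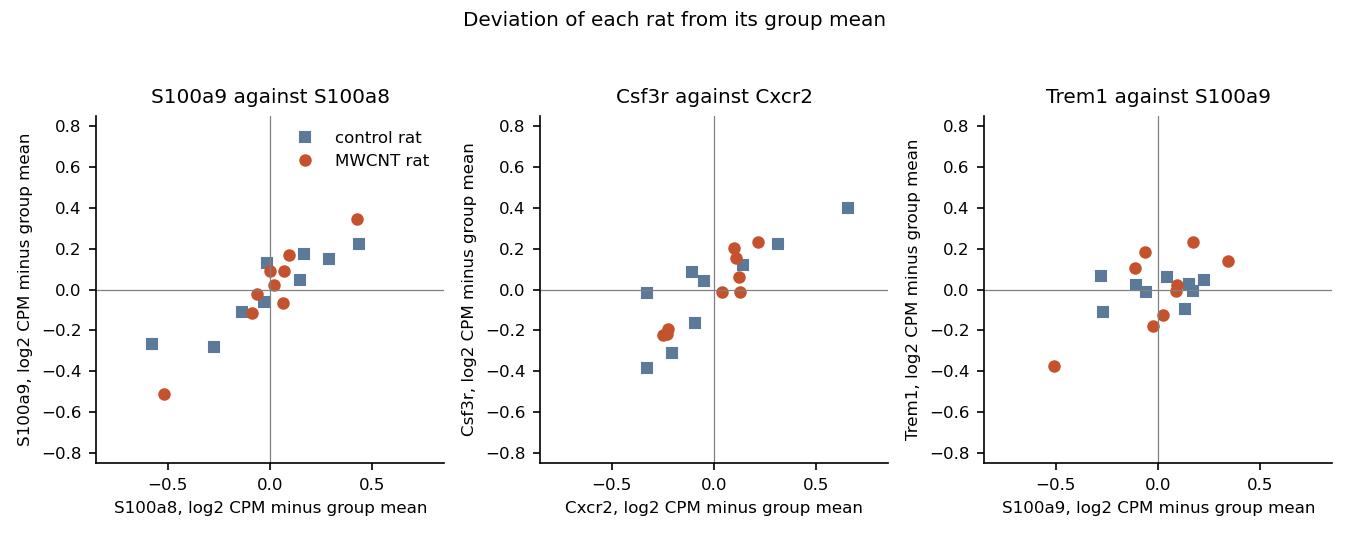
Log2 CPM of each rat minus the mean of its group, for S100a9 against S100a8, Csf3r against Cxcr2 and Trem1 against S100a9 (both axes in log2 units), with squares for control and circles for MWCNT rats, 18 in all. The first pair lies along a line (r = 0.911), the second as well (r = 0.866), and Trem1 scatters.

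By the same measure (r of these values), the gene most like *S100a9* among 14842 others was *S100a8*. The 5 most like it outside the 10 genes were *Fkbp1a* (r = 0.845), *LOC100361087* (0.844), *Tmem161a* (0.834), *Mmp8* (0.819), a neutrophil collagenase gene, and *Chi3l1* (0.807). *Csf3r* came at rank 83, *Trem1* at 344 and *Cxcr2* at 595 of the same order, over 18 rats that share their library depth with every gene compared.

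Around these 10 genes stand the other parts of the neutrophil system, counted in lists with the median of each beside that of all genes tested (−0.02, 0.00 and −0.01). Among all genes tested, 6.07%, 6.13% and 8.17% were called higher at Years 0.5, 1 and 2, and 9.1%, 10.2% and 16.4% in either direction. These shares stand beside the counts of every list that follows. Of 14 other granule protein genes, 6 or 7 were tested and 2, 3 and 3 rose at Years 0.5, 1 and 2, with list medians of 0.44, 0.28 and 0.32 and none lower. They were *Lcn2* (2.85, 3.38 and 3.28 on the log2 scale), which encodes lipocalin and is also made by airway epithelium, *Cd177* (2.76, 2.70 and 3.01), a neutrophil surface protein, and *Mmp9* (0.46, 1.12 and 2.35, not called at Year 0.5), a gelatinase that macrophages make too. The protease gene *Ctsg* had 0 counts in every rat, and *Elane* and the lactoferrin gene *Ltf* had at most 2 counts in any rat. *Np4* and *RatNP-3b*, also in this list, had too few counts to be tested. At Year 2 they had 3 to 30 and 2 to 14 counts per MWCNT rat and 0 in every control rat. In the other groups *Np4* had at most 2 counts and *RatNP-3b* had 0. They were picked after their values were seen, and the share of all genes with groups apart in this way was not counted.

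Of 11 ligand and growth factor genes, 8 were tested and 3, 3 and 4 rose, with medians of 0.64, 0.86 and 0.86 and none lower. The neutrophil-attracting chemokine genes among them were *Cxcl6* (3.84, 4.95 and 4.82), *Cxcl2* (1.84, 2.36 and 2.58), *Cxcl1* (1.17, 2.14 and 1.93) and *Cxcl3* (0.89, 0.90 and 1.21, called at Year 2). *Cxcl6* ran from 22.3 to 26.8 TPM in MWCNT rats at Year 0.5 against 1.75 to 2.07 TPM in control rats. *Csf3*, which encodes G-CSF itself, had at most 6 counts in any rat.

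Of 12 other receptor and adhesion genes, 6 of 12 tested, 6 of 12 and 7 of 11 rose, with medians of 1.13, 1.13 and 1.88. *Itgam* and *Itgb2*, whose products form the integrin that neutrophils share with macrophages, changed by 2.36, 2.30 and 2.46 and by 1.36, 1.33 and 2.01. *Ptafr* (1.96, 1.87 and 2.28) and *C3ar1* (1.52, 1.74 and 2.03) encode receptors for platelet-activating factor and complement. *Cxcr4*, at 88.4 to 169.6 TPM over all rats, differed by −0.16, 0.16 and 0.22 and was not called.

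Of 8 genes for receptors and adaptors of calprotectin and Trem1 signalling, 3 rose at each year, with medians of 0.69, 0.79 and 0.81. *Card9* (1.46, 1.38 and 1.16), an adaptor gene of innate immune signalling, was called at all 3 years. *Tyrobp*, the adaptor that carries the Trem1 signal, was called at Years 0.5 and 1 (1.01 and 1.20) and stood at 0.96 at Year 2, while *Syk* (0.79, 0.81 and 1.19) was called at Year 2. *Ager*, which encodes a calprotectin receptor that the alveolar lining makes in large amounts, stood at −0.45, −0.20 and −0.63.

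Of the 5 phagocyte NADPH oxidase genes tested, 4 rose at each year, with medians of 1.20, 1.57 and 1.60. They were *Cybb* (1.98, 1.82 and 2.72), *Ncf1* (1.49, 1.77 and 1.87), *Cyba* (1.20, 1.57 and 1.60) and *Ncf4* (1.08, 1.14 and 1.04). Of 11 other S100 genes, 9 were tested, none was called higher and 1, 0 and 2 were called lower, with medians of −0.30, −0.08 and −0.34. *S100b* stood at −1.32, −0.95 and −2.11, called at Years 0.5 and 2, and *S100a1* at −1.38 at Year 2, while the abundant *S100a6* (−0.36, −0.08 and −0.34) and *S100g* (0.42, 0.53 and 0.53) were not called.

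Another 3 S100 genes that were not called are described because every MWCNT rat lay above every control rat of the same year. They were picked after their values were seen, and the share of all genes whose groups lie apart in this way was not counted. *S100a10* stood at 0.74, 0.79 and 0.89 on the log2 scale at Years 0.5, 1 and 2 (edgeR FDR 0.00161, 0.000575 and 1.32e-05), under the fold threshold, with 256 to 360 TPM in control and 455 to 559 TPM in MWCNT rats. *S100a11* stood at 0.72, 0.75 and 0.79 (edgeR FDR 0.00198, 0.00246 and 0.00112), with 242 to 280 and 300 to 469 TPM. *S100a5* had too few counts to be tested, with 0 to 3 counts per control rat and 5 to 20 counts per MWCNT rat.

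**Figure D5:**
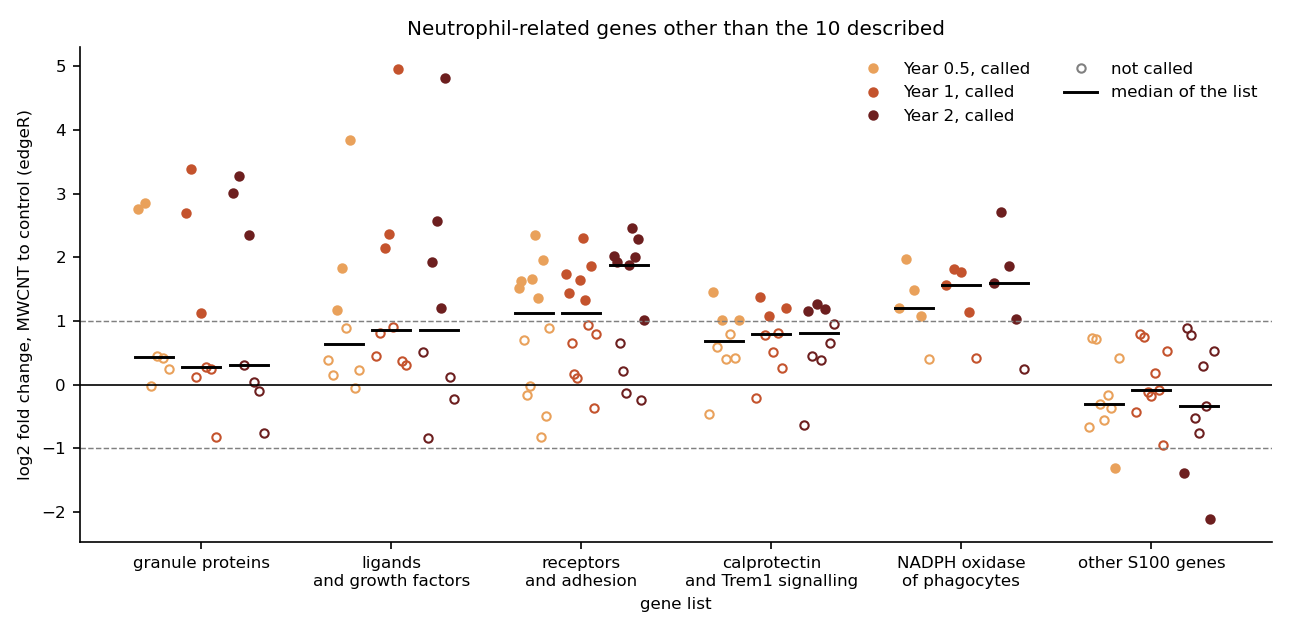
Log2 fold change of MWCNT over control rats (vertical axis, edgeR) for genes of 6 neutrophil-related lists (horizontal axis), with 1 circle per gene and year, filled where called, and a bar at the median of each list. The chemokine Cxcl6 reaches 4.95, 4 of 5 NADPH oxidase genes are called at each year, and the other S100 genes centre below 0.

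Genes of other cell types moved with the same comparison, and their part in the results above was not tested. Among all genes tested, 6.07%, 6.13% and 8.17% were called higher at Years 0.5, 1 and 2, and 9.1%, 10.2% and 16.4% in either direction. Of 8 macrophage markers, 5, 4 and 6 rose and 0, 1 and 0 fell at Years 0.5, 1 and 2, and their summed level ran from 514 to 735 TPM in control rats and from 2767 to 5381 TPM in MWCNT rats. Most of that sum was *Gpnmb*, with a mean of 2468 of 3219 TPM in MWCNT rats at Year 0.5 and 4116 of 5098 TPM at Year 2. *Marco*, an alveolar macrophage receptor, had 0 to 7 counts per control rat and 26 to 130 per MWCNT rat, and *Gpnmb* changed by 3.06, 3.23 and 4.13. Of 5 monocyte markers, 2 rose at each year and 1, 0 and 1 fell (summed level 120 to 290 against 200 to 268 TPM), with *Cd14* at 1.81, 1.60 and 1.99. *Vcan* also rose at each year, while *F13a1* fell at Year 0.5 and *Nr4a1* at Year 2. *Nr4a1* alone held 65.3 to 220 TPM in control rats at Year 0.5.

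Of 6 mast cell markers, 2, 4 and 5 rose and 1, 0 and 1 fell, with summed levels of 91.3 to 152 TPM in control and 67.0 to 326 TPM in MWCNT rats. The sums hide opposite movements. At Year 2 the mean of *Kit*, the one that fell, was 109 TPM in control and 37.8 TPM in MWCNT rats. *Tpsab1* stood at 0.446 against 92.9 TPM, *Tpsb2* at 1.34 against 84.3 TPM and *Cpa3* at 1.66 against 56.0 TPM. Among 5 eosinophil markers 1 had enough counts to be tested (*Ccr3*, −2.04 at Year 2) and *Prg3* had 0 counts in every rat, with summed levels of 2.502 to 5.09 and 0.971 to 2.79 TPM. Of 5 platelet markers, 1 rose at each year and 1, 2 and 1 fell (53.3 to 67.9 against 108 to 145 TPM). Here too the sum hides opposite movements, as the list medians were −0.61, −0.56 and −0.65. *Gp1bb* fell at each year and *Gp9* at Year 1. The one that rose was *Pf4*, a chemokine gene that macrophages can also express. Of 5 bone marrow progenitor markers, 1, 0 and 1 rose, the proliferation gene *Mki67* at Years 0.5 and 2, and *Ms4a3* had 0 counts in every rat (75.3 to 115 against 48.8 to 87.3 TPM).

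Several blood cell and vessel markers fell. Beside their counts, 9.1%, 10.2% and 16.4% of all genes tested were called in either direction at Years 0.5, 1 and 2, and 6.07%, 6.13% and 8.17% were called higher. Of 4 red cell markers, 3, 3 and 4 fell, with summed levels of 8547 to 20726 TPM in control and 2128 to 5483 TPM in MWCNT rats. Of 4 B cell markers, 2, 0 and 2 fell (42.1 to 87.2 against 12.8 to 42.2 TPM), and of 3 T cell markers, 0, 0 and 3 fell (52.6 to 89.7 against 17.6 to 55.2 TPM). Of 3 endothelial markers, 0, 0 and 2 fell (1472 to 1864 against 509 to 1058 TPM). Of 6 lung epithelium markers, 0, 0 and 1 rose, *Sftpc* by 1.00 at Year 2, with summed levels of 41649 to 61834 and 48235 to 58612 TPM. Of the listed genes, 6 were not analysed here, among them *Ccr2*, *Ear11*, *Trac* and *Pecam1*.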

How the data were processed

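The authors mapped the reads with CLC Genomics Workbench to a rat genome and deposited, per time point, gene counts and TPM values for each rat. The multi-mapping and strand settings are not given in the sources used here. The deposited tables also hold the authors' fold changes, p-values and other comparison columns, which were not used. Counts (NEBNext Ultra II libraries) were taken as deposited, with 13297643 to 21130757 per rat, and TPM as deposited.

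Groups came from the sample titles. Each year was fitted on its 6 rats with edgeR 4.0.16 in R 4.3.3 (glmQLFit, glmQLFTest, filterByExpr with a minimum count of 10, TMM factors), and time and interaction contrasts on all 18 rats. FDR is the Benjamini-Hochberg value over all genes tested. Each library is 1 rat. Log2 CPM used a prior count of 2. The TPM ratios were chosen after the data were seen and compared by exact permutation with SciPy 1.17.1. Levels between genes are compared in TPM only. The members and lists were chosen with earlier results of these data known. Named are all 10 members and the 5 genes most like *S100a9*. From each list, up to 4 called genes with the largest change and up to 2 with the highest TPM are named. *Csf3*, *Ctsg*, *Elane*, *Ltf*, *Prg3* and *Ms4a3* were added for their low counts, and *Np4* and *RatNP-3b* for their counts at Year 2. DESeq2 1.42.0, limma 3.58.1 on log2(TPM + 1) and log2(TPM + 0.1), other filters and scalings, the replicate block and each rat left out were the alternatives. The edgeR step was tested on simulated data. Some genes counted in the lists are not reported here by name.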

Additional observations from a re-analysis of the deposited data

Results flagged for a closer look

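The difference in the MWCNT effect between years, tested as the treatment by time interaction in edgeR, is given here for 2 listed genes where it passed. Among all genes tested, it passed for 1.31% for Year 2 against Year 0.5 and 0.478% for Year 2 against Year 1. For *Itgb2*, an integrin gene of all white blood cells, the effect was larger at Year 2 than at Year 0.5 by 0.65 on the log2 scale (SE 0.12, FDR 0.0153) and larger than at Year 1 by 0.69 (SE 0.12, FDR 0.0277). For *Mmp9*, the effect was larger at Year 2 than at Year 0.5 by 1.90 (SE 0.41, FDR 0.029). Its level ran from 3.55 to 4.39 TPM in control and from 3.28 to 5.95 TPM in MWCNT rats at Year 0.5, and from 3.67 to 5.74 TPM and 13.8 to 25.7 TPM at Year 2.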

How the results depend on the processing

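The 2, 3 and 3 members called higher at Years 0.5, 1 and 2 were the same genes under each other filter, scaling, test and unit tried, and with any 1 rat left out. Leaving out a rat gave 2 to 3, 3 to 4 and 3 to 3 calls in either direction, the added ones being lower calls of *Ngp* and *Fpr2*. The interaction count for Year 2 against Year 0.5, 0 in edgeR, was 1 with the replicate block (*S100a8*), 2 with DESeq2 and 0 to 2 with a rat left out. Replicate numbers paired nothing: deviations of same-numbered rats had a mean correlation of 0.01 (−0.15 to 0.11 over 9 pairs), and the block changed no other call.

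Changes near 0 turned direction without passing any threshold. *Cxcr2* at Year 0.5 was −0.048 with library size alone, −0.089 and −0.098 with limma (pseudocounts 1 and 0.1), and −0.051 to 0.18 with a rat left out. *Trem1* in the interaction of Year 2 against Year 0.5 was −0.024 with library size alone and −0.068 to 0.22 with a rat left out. Leaving out a rat also turned *Csf3r* (−0.18 to 0.056) and *Camp* (−0.34 to 0.83) at Year 0.5, *Csf3r* at Year 2 (−0.34 to 0.054), *Csf3r* (−0.27 to 0.12) and *Camp* (−0.48 to 0.69) in that interaction, *Cxcr2* (−0.30 to 0.28) and *Camp* (−0.41 to 0.76) over time in control rats, and *Trem1* over time in MWCNT rats (−0.22 to 0.065). The cause was not tested. With a rat left out, the S100a8 to S100a9 relation stayed from 0.882 to 0.938, and counts under about 10 per rat limit what *Fpr1*, *Fpr2* and *Mpo* can show.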
